A study of Mus musculus with 48 samples.

Results

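Thymic iNKT17 cells were set against thymic iNKT1 cells in 4 bulk RNA-seq libraries, 2 per sublineage, which were taken by their labels and table columns from the 48 samples of the study. Invariant natural killer T (iNKT) cells were sorted fresh from the thymus of FVB/N mice, each RNA preparation started from 10000 to 50000 pelleted cells, and the labels name no allele, transgene or treatment for any of the groups used here. The mice's age, the surface markers of the sort, and whether animals were pooled are not given in the sources used here. The 2 iNKT2 RNA libraries of the same table entered the fit for its estimate of spread, and 6 ATAC-seq libraries of the same sublineages (2 each) were used as a second readout. The other samples (single cells, donor T cells and iNKT1 cells divided by CD4) were not analysed here.

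iNKT cells carry a nearly invariant T cell receptor that recognises glycolipids bound to CD1d, and they acquire effector programs inside the thymus under the transcription factor PLZF (Zbtb16). iNKT1 cells depend on T-bet and IL-15, make interferon-γ and carry receptors that are also found on natural killer (NK) cells. iNKT17 cells respond to IL-1 and IL-23 and make IL-17. The comparison asks how far these programs separate the transcriptomes of both sublineages.

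Of 12372 genes with enough counts to be tested, 122 were higher in iNKT17 cells (0.986%) and 125 were lower (1.01%) at an adjusted p under 0.05 in edgeR's quasi-likelihood test, the rule for every call below. At an unadjusted p under 0.05 there were 1227 genes (9.92%). The shares of 0.986% and 1.01%, together 2.00%, are those to set beside the list counts below. The lists and their members were chosen with earlier results of these data known. List counts therefore describe these genes and are no test of enrichment. For list counts by 2 other programs, the totals are 1840 calls among 17710 genes in DESeq2 and 196 among 12372 in limma voom. Many of these genes were close to absent on one side: 56 of the 122 higher genes averaged under 1 CPM (reads counted in a gene per 1000000 reads counted in all genes) in iNKT1 libraries, and 61 of the 125 lower genes averaged under 1 CPM in iNKT17 libraries. The 4 libraries held 26811373 to 33688697 counts, and the iNKT2 libraries lay inside that range. Differences between libraries of 1 sublineage were wide, with a biological coefficient of variation of 1.30. A log2 fold change of at least 5 in either direction was fitted for 1972 genes, of which 1850 were not called. All RNA values below are CPM for library 1 and library 2 of a group, in that order. Log2 fold changes are iNKT17 minus iNKT1 and carry their standard error (SE). Sorted bulk samples cannot separate fewer expressing cells from less RNA per cell.

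**Figure D1:**
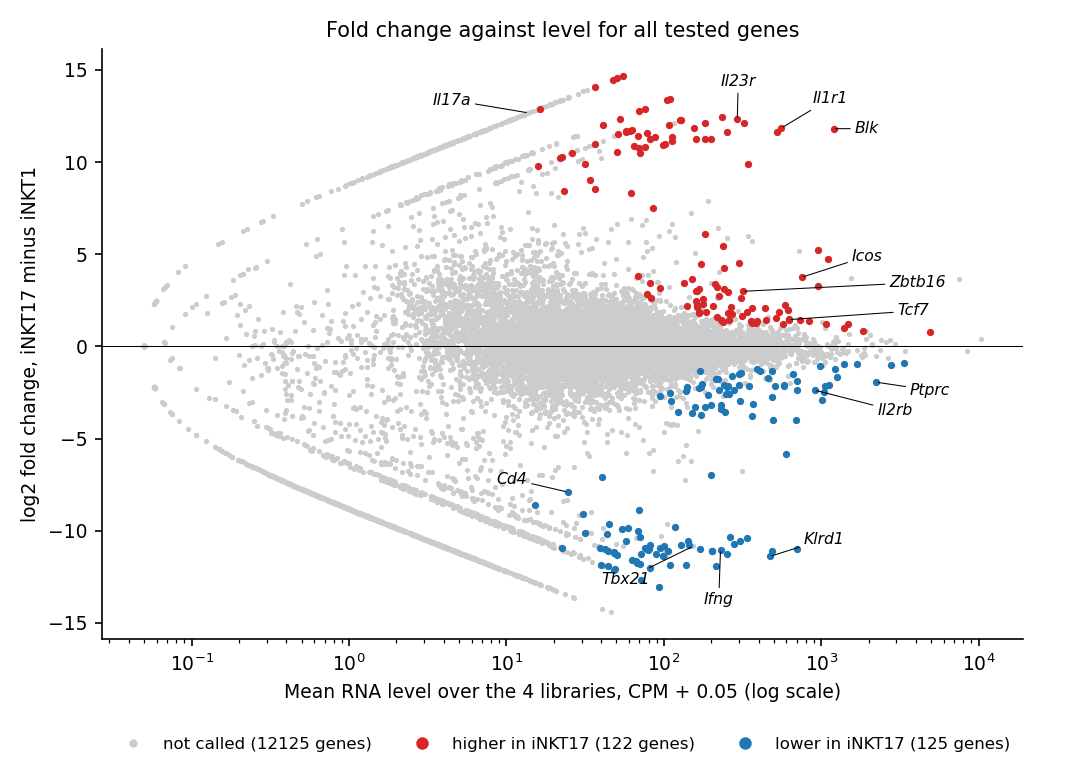
Log2 fold change (iNKT17 minus iNKT1, vertical axis) against the mean RNA level over the 4 libraries (CPM + 0.05, log axis) for 12372 tested genes, 1 point per gene. The 122 genes called higher (red) and 125 called lower (blue) split into 122 with a log2 fold change of at least 5 in size and 125 with smaller changes at high level, while Il17a and Tbx21 lie far from 0 and are not called.

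The type 17 program was higher in iNKT17 cells, led by cytokine receptors that were near 0 in iNKT1. Of the 27 tested members of 30, 11 rose in iNKT17 cells, 0 fell and 16 were not called, and the median log2 fold change over the tested members was 5.71 against −0.03 over all tested genes. Both iNKT17 libraries lay above both iNKT1 libraries for 24 of the 27, where 18.2% of all tested genes did so. Maf, which encodes c-Maf, a transcription factor of IL-17-producing T cells, was present in every library and rose from 65.2 and 104 CPM in iNKT1 to 552 and 509.8 CPM in iNKT17 libraries (log2 fold change 2.65 ± 0.38, adjusted p = 0.00562). Sox13, a transcription factor gene known from IL-17-producing γδ T cells, rose from 11.3 and 38.4 to 578 and 568 CPM (4.52 ± 0.55, adjusted p = 0.00412). iNKT2 libraries held as much Sox13 (607 and 591 CPM), so iNKT1 was the low group of the 3. The Sox13 call was lost without either iNKT17 library (adjusted p = 0.12 and 0.238).

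The specific receptor chains for IL-1 and IL-23, cytokines that drive IL-17 production, were nearly absent from iNKT1 and abundant in iNKT17 libraries. Il1r1, the signalling receptor for IL-1, measured 0.393 and 0.21 CPM in iNKT1 and 1077 and 1148 CPM in iNKT17 libraries (11.84 ± 0.46, adjusted p = 5.57e-06). Il23r, the specific chain of the IL-23 receptor, measured 0.164 and 0.0599 CPM against 633 and 538 CPM (12.32 ± 0.61, adjusted p = 1.35e-05). Neither receptor was above 0.5 CPM in any iNKT1 or iNKT2 library. Il12rb1, the chain that IL-23 and IL-12 receptors share, rose from 56.8 and 41.2 to 266 and 279 CPM (2.48 ± 0.38, adjusted p = 0.00867). Il17re, a receptor chain for IL-17C, measured 4.45 and 0 CPM in iNKT1 and 190.2 and 257 CPM in iNKT17 libraries and was not called (adjusted p = 0.349). The 2 iNKT1 libraries disagreed on Il17re while the groups did not overlap.

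The cytokine genes themselves were low or silent in these freshly sorted cells. Il17a had no count in either iNKT1 library and measured 39.8 and 15.1 CPM in the iNKT17 libraries, at least 609.5-fold higher when 3 counts are taken as the limit of detection in a group. It was not called (adjusted p = 0.398, n = 2 each, edgeR), while DESeq2 on the same counts gave an adjusted p of 3.24e-05. Il17f and Il22, cytokine genes of the same program, had no count in any of the 6 libraries. Ccr6, a chemokine receptor of type 17 lymphocytes, measured 0 and 0.0599 CPM in iNKT1 and 74.5 and 26.2 CPM in iNKT17 libraries and was not called either (adjusted p = 0.316). For Il17a and Ccr6 the iNKT17 libraries stood well above iNKT1 and differed by over 2-fold between themselves.

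Other genes used as markers of IL-17-producing innate-like T cells ranged from absent to abundant. Blk, a Src-family kinase, measured 0.916 and 0.419 CPM in iNKT1 and 3017 and 1775 CPM in iNKT17 libraries (11.81 ± 0.67, adjusted p = 0.000154). Sdc1, the proteoglycan syndecan-1 by which iNKT17 cells can be sorted, measured 0.131 and 0.15 against 616 and 675 CPM (12.12 ± 0.60, adjusted p = 1.35e-05). Both genes left the groups far apart. Because the surface markers of the sort are not given, differences that the sort itself set at surface genes such as Sdc1, Icos or Il2rb cannot be told apart. Serpinb1a, a protease inhibitor, stood at 0.0982 and 0 against 249 and 264 CPM, 5448-fold (95% interval 1864 to 26419) in counts, and Pxdc1 at 0.229 and 0.0898 against 369 and 423 CPM. The scavenger receptor gene 5830411N06Rik rose from 76.6 and 83.7 to 2345 and 1938 CPM, and the chemokine receptor Ccr2 from 322 and 207 to 737 and 796 CPM. Rora, a nuclear receptor, measured 14.9 and 28.4 CPM in iNKT1 and 105 and 123 CPM in iNKT17 libraries, just outside the call (adjusted p = 0.0676), as was the potassium channel gene Kcnk1 at 0.0327 and 0.0599 against 77.2 and 77.8 CPM (adjusted p = 0.0552). Some members lay close together: Ahr (69.5 and 59.8 against 53.8 and 113 CPM), Ltb (485 and 387 against 467 and 568 CPM) and the IL-18 receptor Il18r1 (1029.7 and 1243 against 1349 and 1371 CPM) had log2 fold changes of 0.36, 0.25 and 0.26. In place of 11, DESeq2 called 18 of the list and limma voom 10.

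**Figure D2:**
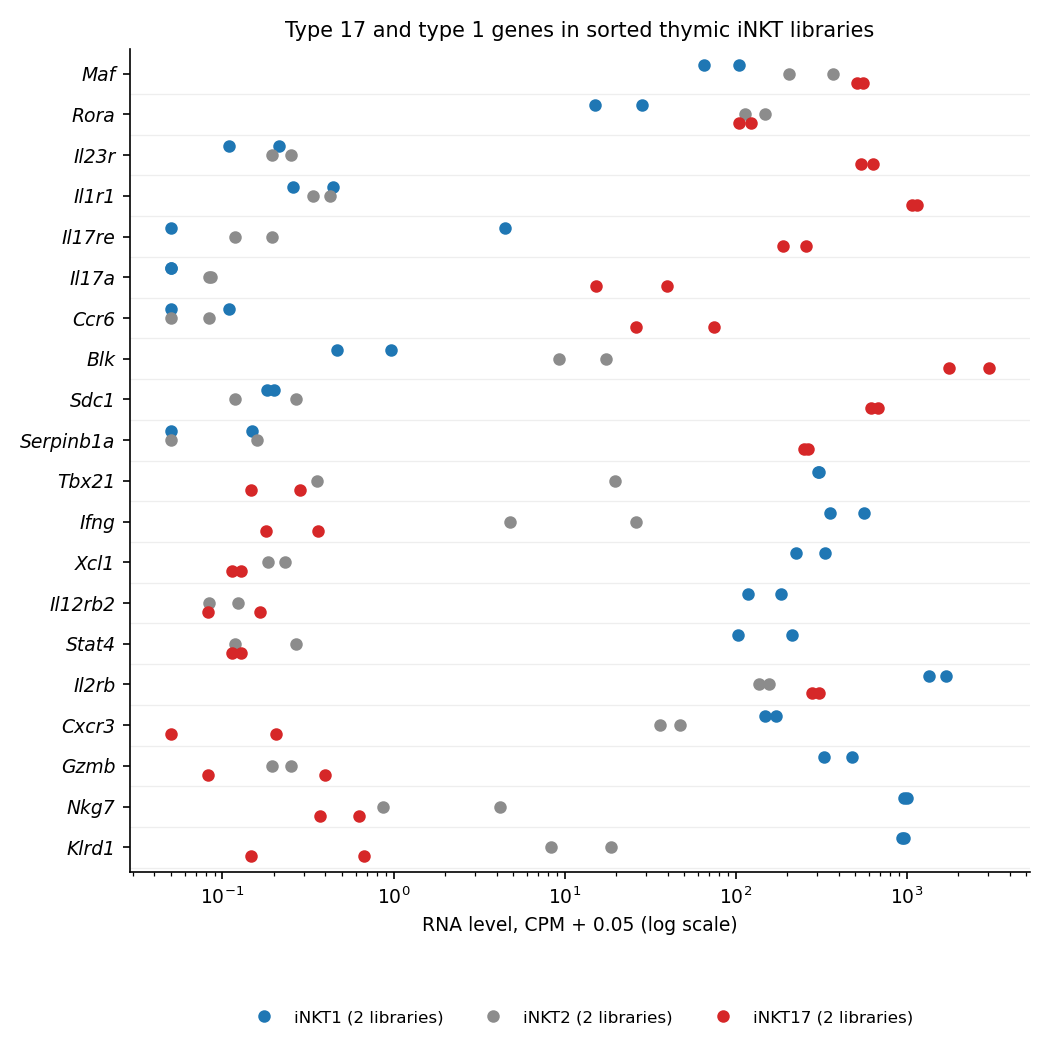
RNA level (CPM + 0.05, log axis) of 10 type 17 genes (top, Maf to Serpinb1a) and 10 type 1, cytotoxic or NK receptor genes (below, Tbx21 to Klrd1) in each sorted thymic library, 2 points per sublineage. The iNKT17 points (red) lie to the right of the iNKT1 points (blue) for each of the 10 type 17 genes and to the left for each of the other 10, and iNKT2 points (grey) fall on either side or between.

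Start regions of several type 17 cytokine and receptor genes were more accessible in iNKT17 than in iNKT1 libraries, including Il17a and Ccr6, whose RNA was not called. In ATAC-seq, a transposase cuts accessible DNA and the fragments are counted over regions, which are given here on mm10. Of all 54520 regions tested, 23.5% were higher and 13.6% lower in iNKT17 than in iNKT1 cells. Among the 8018 regions that lie on promoter windows of tested genes, 3.64% were higher and 19.6% lower. The region over the Il17a start, chr1:20730571-20731369, measured 0.633 and 0.484 CPM in iNKT1, 2.36 and 1.58 CPM in iNKT2 and 30.9 and 46.8 CPM in iNKT17 libraries (log2 fold change 6.09 ± 0.37, adjusted p = 4.76e-05). The Il23r start region, chr6:67491462-67492319, measured 0.779 and 0.528 against 20.0 and 32.1 CPM (5.28 ± 0.45, adjusted p = 8.79e-05). The Ccr6 start region, chr17:8235696-8236254, was weaker in the iNKT1 and iNKT17 libraries than that of Il23r, at 0.389 and 0.44 against 3.6 and 5.62 CPM, and was also higher in iNKT17 (3.48 ± 0.47, adjusted p = 0.000535). All 9 regions assigned to Il1r1 and all 10 assigned to Blk were higher in iNKT17 libraries, against the 23.5% of all regions. The other receptor genes were mixed: 4 of 5 regions were higher at Il23r, 1 of 6 at Il12rb1, 1 of 3 at Ccr6 and 0 of 8 at Il18r1, where 1 was lower. The strongest Ccr6 region, chr17:8251734-8252038, measured 12 and 15.6 against 11.3 and 18.3 CPM and was not called (0.10 ± 0.29, adjusted p = 0.814).

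The promoters of these 3 genes are shown because their accessibility changed with the sublineage and because each holds the core motif AGGTCA that nuclear receptors can bind. The sequences are the 250 bases before the start in RefSeq on GRCm38.p6, a C57BL/6J reference, read 5′ to 3′ on the gene's strand, while the cells came from FVB/N mice. Capitals mark AGGTCA or its reverse complement TGACCT.
Il17a (chr1:20730655-20730904, plus strand): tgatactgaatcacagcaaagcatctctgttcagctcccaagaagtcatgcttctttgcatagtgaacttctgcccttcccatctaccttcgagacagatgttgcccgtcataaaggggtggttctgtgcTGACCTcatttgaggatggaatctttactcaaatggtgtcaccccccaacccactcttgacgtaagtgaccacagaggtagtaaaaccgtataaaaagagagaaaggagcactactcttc
Il23r (chr6:67491856-67492105, minus strand): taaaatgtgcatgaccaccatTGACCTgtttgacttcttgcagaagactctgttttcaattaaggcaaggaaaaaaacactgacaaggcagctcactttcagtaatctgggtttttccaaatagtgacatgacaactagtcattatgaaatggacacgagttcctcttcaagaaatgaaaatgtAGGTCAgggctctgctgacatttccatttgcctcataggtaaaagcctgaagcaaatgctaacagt
Ccr6 (chr17:8235793-8236042, plus strand): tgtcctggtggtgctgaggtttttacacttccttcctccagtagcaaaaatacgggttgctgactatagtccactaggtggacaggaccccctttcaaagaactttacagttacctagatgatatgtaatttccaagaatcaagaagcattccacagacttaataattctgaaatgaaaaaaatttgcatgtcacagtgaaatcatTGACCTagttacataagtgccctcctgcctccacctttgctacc
The match lies 120 to 115 bases before the start in Il17a, 229 to 224 and 66 to 61 bases before it in Il23r, and 44 to 39 bases before it in Ccr6. These matches are a description of the letters and not of binding. Searched on both strands, AGGTCA occurs in 14.0% of all 32851 RefSeq promoter windows of this length, in 16 of 126 promoters of genes called higher in iNKT17 (12.7%) and in 14 of 131 promoters of genes called lower (10.7%), and both shares lie below that of all windows.

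The type 1 program was lower in iNKT17 cells, where several of its effector genes were reduced to traces. Of 17 tested members of 20, 7 fell, 2 rose and 8 were not called, and the median log2 fold change was −6.75. For 14 of the 17 both iNKT17 libraries lay below both iNKT1 libraries, where 22.3% of all tested genes did so. Ifng, the gene of interferon-γ, measured 355 and 562 CPM in iNKT1 and 0.129 and 0.31 CPM in iNKT17 libraries (−11.03 ± 1.14, adjusted p = 0.00211). Its call was lost without either iNKT17 library (adjusted p = 0.156 and 0.28). Xcl1, a chemokine of NK and type 1 T cells that attracts cross-presenting dendritic cells, measured 225 and 330.4 against 0.0643 and 0.0775 CPM (−11.86 ± 0.77, adjusted p = 5.26e-05). Tbx21, the gene of T-bet, measured 307 and 305 CPM in iNKT1 and 0.0965 and 0.233 CPM in iNKT17 libraries, and was nevertheless not called (adjusted p = 0.105). Replicates of the 2 compared groups agreed closely for Tbx21, and the pair that did not was iNKT2, at 0.305 and 19.7 CPM. With only the 4 compared libraries in the fit, Tbx21 had an adjusted p of 0.00117. That fit called 191 genes in place of 247: 16 named genes lost their call in it, among them Cd4 (0.265), Il6ra (0.254), Ccr7 (0.284), Ccr4 (0.145) and Id3 (0.104, all adjusted p), while Tbx21 gained one.

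Other members of the list moved in both directions. Il2rb, the receptor chain through which IL-2 and IL-15 signal, stayed expressed on both sides and fell from 1689 and 1357 to 281 and 307 CPM (−2.38 ± 0.23, adjusted p = 0.000567). Il12rb2, the specific chain of the IL-12 receptor, measured 183 and 118 against 0.0322 and 0.116 CPM, and Stat4, the transducer of IL-12 signals, 103 and 212 against 0.0643 and 0.0775 CPM. The Stat4 call was lost without iNKT1 library 2 (adjusted p = 0.256). The chemokine receptor Cxcr3, which answers interferon-induced chemokines, measured 171 and 149 against 0 and 0.155 CPM, and the surface antigen Ly6c2 528 and 582 against 0.225 and 0.427 CPM. In the receptor for IL-12 and IL-23, the chain used by IL-12 was thus at traces in iNKT17 libraries while the shared chain Il12rb1 and the IL-23 chain Il23r rose. The members that rose were Il12rb1 and Id2, an inhibitor of E proteins, which went from 686 and 604 to 1521 and 1459 CPM (1.21 ± 0.18, adjusted p = 0.00743, and 0.0526 without iNKT1 library 2). Tnf lay close together in both groups (65.9 and 87.5 against 82 and 91.5 CPM). DESeq2 called 13 members of the list and limma voom 5, in place of 9.

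Accessibility fell at the same genes. The Ifng start region, chr10:118440595-118441249, measured 51.6 and 51.3 CPM in iNKT1 and 1.37 and 1.02 CPM in iNKT17 libraries (−5.44 ± 0.34, adjusted p = 4.76e-05). The Xcl1 start region, chr1:164935203-164936362, measured 52.8 and 53.7 against 1.72 and 0.791 CPM (−5.44 ± 0.37, adjusted p = 5.34e-05). In both cases each iNKT17 library lay far below each iNKT1 library. At Tbx21, whose RNA was not called, 6 of 8 assigned regions were lower and 0 higher, where 13.6% of all regions were lower. Its strongest region, chr11:97112500-97113136, measured 115 and 95.9 CPM in iNKT1, 19.1 and 21.3 CPM in iNKT2 and 3.5 and 1.04 CPM in iNKT17 libraries (−5.58 ± 0.59, adjusted p = 0.00109).

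The promoters of Xcl1 and Ifng are shown because these type 1 cytokine genes lost accessibility at the start in iNKT17 cells, on the same reference and strand rule. Capitals mark GGTGTGA, a core motif of T-box factors such as T-bet, and TGTGGTT, a core motif of RUNX factors, each in either direction.
Xcl1 (chr1:164935523-164935772, minus strand): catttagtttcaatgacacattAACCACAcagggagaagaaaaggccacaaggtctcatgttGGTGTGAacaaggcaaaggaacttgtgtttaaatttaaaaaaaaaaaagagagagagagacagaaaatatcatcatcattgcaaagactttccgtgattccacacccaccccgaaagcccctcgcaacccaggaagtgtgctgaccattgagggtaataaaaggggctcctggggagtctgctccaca
Ifng (chr10:118440796-118441045, plus strand): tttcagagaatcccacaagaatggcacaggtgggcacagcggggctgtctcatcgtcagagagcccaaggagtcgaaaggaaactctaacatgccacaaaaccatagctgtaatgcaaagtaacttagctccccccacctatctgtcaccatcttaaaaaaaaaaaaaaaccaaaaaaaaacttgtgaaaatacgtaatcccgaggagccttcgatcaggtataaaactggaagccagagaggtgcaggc
Xcl1 holds GGTGTGA 188 to 182 bases before the start and AACCACA, the reverse complement of TGTGGTT, 228 to 222 bases before it. Neither motif has a match in these 250 bases of Ifng, which says nothing of binding elsewhere. On both strands, GGTGTGA occurs in 3.33% of all promoter windows, in 11 of 131 promoters of genes called lower (8.40%) and in 2 of 126 promoters of genes called higher (1.59%). TGTGGTT occurs in 4.40% of all windows, in 11 of 131 promoters of lower genes (8.40%) and in 1 of 126 of higher genes (0.794%). The longer form AGGTGTGA, which contains GGTGTGA, was found in 1.12% of all windows, 2 of 131 and 0 of 126. As above, the 131 promoters belong to 93 genes and the 126 to 90, so 1 gene can count more than once. No test was made of these shares.

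Part of the cytotoxic granule genes and of the NK receptors fell too. Of 15 tested cytotoxic genes 5 fell, 0 rose and 10 were not called (median log2 fold change −1.72), where 1.01% of all tested genes fell. Gzmb, the protease granzyme B, measured 479 and 329 CPM in iNKT1 and 0.0322 and 0.349 CPM in iNKT17 libraries (−11.08 ± 0.94, adjusted p = 0.000254). Nkg7, a granule membrane protein of cytotoxic cells, measured 999.8 and 958 against 0.322 and 0.582 CPM (−11.08 ± 1.00, adjusted p = 0.00245, and 0.162 or 0.275 without either iNKT17 library). The protease Gzma was likewise at trace levels in iNKT17 libraries, at 440.5 and 366 CPM in iNKT1 against 0.0643 and 0.31 CPM, and its call was lost without any 1 of the 4 compared libraries (adjusted p = 0.128 to 0.554). The pore protein Prf1 measured 96 and 60.2 against 0.0322 and 0.0388 CPM. The granule cathepsin Ctsw fell less far, from 1699 and 1943 to 382 and 477 CPM (−2.09 ± 0.21, adjusted p = 0.000736). General parts of the granule and its release were not called, including the proteoglycan Srgn (413 and 526 against 600.3 and 496 CPM), the membrane protein Lamp1 (141 and 73.9 against 172 and 132 CPM) and the small GTPase Rab27a (43.4 and 75 against 154 and 266 CPM). DESeq2 called 8 of the list and limma voom 1.

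Of 21 tested NK receptor and adaptor genes, 9 fell, 0 rose and 12 were not called (42.9% called, beside 2.00% of all tested genes). The median log2 fold change was −10.31 (−9.30 with genes without counts at their bound). Klrd1, the CD94 chain that pairs with NKG2 receptors, measured 933 and 957 CPM in iNKT1 and 0.0965 and 0.62 CPM in iNKT17 libraries (−11.39 ± 0.95, adjusted p = 0.00128). Its partner Klrc1 (NKG2A) measured 99.2 and 79.5 against 0.0643 and 0.155 CPM. Members of the Ly49 family fell together: Klra1 measured 315 and 361 against 0.0965 and 0.233 CPM, Klra5 1616 and 1187 against 0.322 and 1.09 CPM and Klra6 164 and 191 against 0.0965 and 0.0388 CPM. Ly49 genes are near-identical copies, and how reads shared by them were counted is not stated. The listed builds are also C57BL/6J references while the cells came from FVB/N mice. The single values of Ly49 genes are therefore uncertain. Cd244a, the receptor 2B4, measured 199 and 204 against 0.0965 and 0.116 CPM, and the signalling adaptor Fcer1g 187 and 237 against 0.0322 and 0.155 CPM. DESeq2 called 15 of the list and limma voom 0. Summed over the list, iNKT1 was again the high group: 5215 and 4711 CPM, against 341 and 288 CPM in iNKT2 and 930 and 760 CPM in iNKT17 libraries. Other receptors of the complex were not called. Klrb1c, the gene of NK1.1, measured 335 and 241 CPM in iNKT1 and 505 and 461 CPM in iNKT17 libraries and 0.372 and 8.66 CPM in iNKT2 libraries (iNKT17 against iNKT1, adjusted p = 0.925), and its neighbours in the family Klrb1a (49.9 and 106 against 108 and 66.7 CPM) and Klrb1f (5.73 and 19.5 against 42.3 and 28.8 CPM) were detected in every library of both groups.

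**Figure D3:**
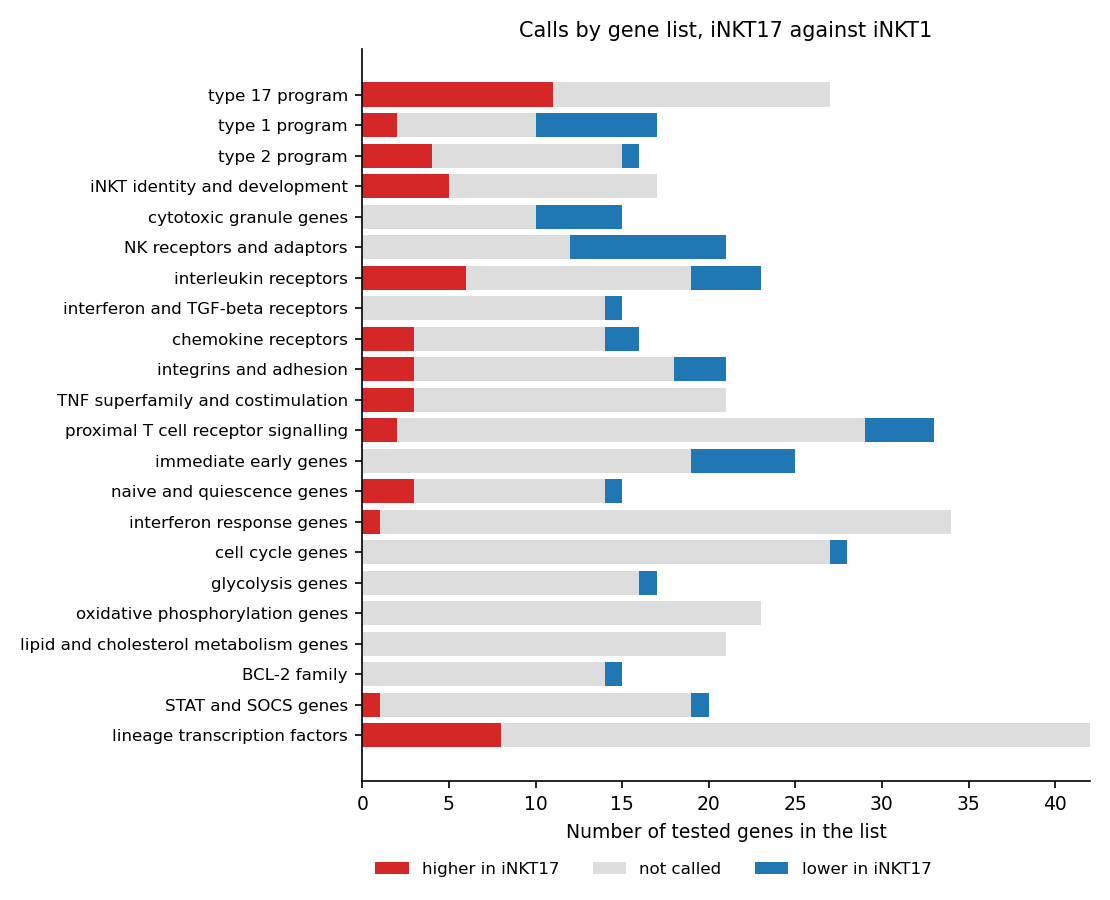
Number of tested genes called higher (red), lower (blue) or not called (grey) in iNKT17 against iNKT1 cells for each of 22 gene lists with at least 5 tested members. Cytotoxic, NK receptor and immediate early lists hold only lower calls, the type 17, iNKT identity, costimulation and lineage transcription factor lists only higher calls, and no oxidative phosphorylation or lipid gene was called.

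Several genes of the iNKT2 program and of iNKT identity were higher in iNKT17 than in iNKT1 cells and high in iNKT2 cells too. Among the 16 type 2 genes tested, the calls were 4 higher, 1 lower and 11 without a call (median log2 fold change 1.30). That is 31.25% called, beside 2.00% of all tested genes, while DESeq2 called 11 and limma voom 1. Il17rb, a chain of the receptor for IL-25, had no count in iNKT1 libraries and measured 56.3 and 163 CPM in iNKT17 and 137 and 155 CPM in iNKT2 libraries, which puts iNKT17 at least 2231-fold above iNKT1 (adjusted p = 0.000472). Il6ra, the IL-6 receptor, measured 0.196 and 0.0599 CPM in iNKT1, 48.6 and 43.2 CPM in iNKT17 and 233 and 336 CPM in iNKT2 libraries. The chemokine receptor Ccr4 measured 0 and 0.12 CPM in iNKT1, 47.1 and 79.3 CPM in iNKT17 and 98.9 and 197 CPM in iNKT2 libraries, so both receptors were highest in iNKT2. Icos, a costimulatory receptor, rose from 113 and 95.4 to 1362 and 1431 CPM (3.75 ± 0.25, adjusted p = 5.28e-05). Il4 measured 0 and 0.0299 CPM in iNKT1, 37.1 and 47.9 CPM in iNKT2 and 11.6 and 21.4 CPM in iNKT17 libraries and was not called between iNKT17 and iNKT1 (adjusted p = 0.226). The chemokine receptor Ccr8 was the member that fell, from 109.5 and 156 to 0 and 0.0775 CPM. Gata3, the transcription factor of type 2 T cells, overlapped between the groups at 126 and 225 against 155 and 239 CPM (0.17 ± 0.40, adjusted p = 0.968).

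Of 17 tested iNKT identity and development genes, 5 rose, 0 fell and 12 were not called (29.4% called, beside 2.00% of all tested genes). Zbtb16, the gene of PLZF, rose from 96 and 46.7 to 544 and 589 CPM (2.99 ± 0.38, adjusted p = 0.00249). Myb, a transcription factor needed early in iNKT development, measured 0.131 and 0.12 CPM in iNKT1, 219 and 419 CPM in iNKT17 and 227 and 122 CPM in iNKT2 libraries. The E protein inhibitor Id3 rose from 15.6 and 22.3 to 118 and 156 CPM and the zinc finger gene Hivep3 from 26.6 and 19.1 to 163 and 123 CPM. The co-receptor Cd4 fell from 45 and 52.3 to 0.0643 and 0.349 CPM (−7.90 ± 0.66, adjusted p = 0.000254), with iNKT2 far above both at 484 and 519.5 CPM. Cd8a had 0 and 0.0599 CPM in iNKT1 and no count in iNKT17 libraries. The invariant chain's V segment gene, Trav11, had few or no counts (2.45 and 0.0299 CPM in iNKT1 and 0 and 0 CPM in iNKT17), although the constant segment Trac measured 753 and 796 CPM in iNKT1 and 747 and 601 CPM in iNKT17 libraries. The Vβ segment Trbv13-2 had no count, whereas Trbv1 (301 and 387 against 526 and 547 CPM) and Trbv29 (165 and 65.6 against 189 and 213 CPM) were expressed in both groups. The cells came from FVB/N mice, while the listed builds are references of another strain. Whether FVB/N mice carry Trbv13-2 was not tested, so its lack of counts cannot be read as absent expression.

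Calls among transcription factors of T cell lineages all went in one direction, whereas the levels went both ways. Of 42 tested lineage factors of 53, 8 rose, 0 fell and 34 were not called (19.0% called, beside 2.00% of all tested genes). The risers included Runx1, Zbtb16, Sox13, Maf, Id2, Tcf7 and Id3. Both iNKT17 libraries lay above both iNKT1 libraries for 21 of the 42 and below for 12, beside 18.2% and 22.3% of all tested genes. DESeq2 called 21 of the list and limma voom 7. Runx1, a RUNX factor, measured 0.196 and 0 CPM in iNKT1, 179 and 213 CPM in iNKT17 and 71.9 and 74.4 CPM in iNKT2 libraries (10.94 ± 1.18, adjusted p = 0.00112). Runx3, its relative in type 1 and cytotoxic cells, measured 234 and 251 against 140.4 and 228 CPM (−0.40 ± 0.36, adjusted p = 0.774). Tcf7, the gene of TCF-1, rose from 291 and 377 to 928 and 903 CPM (1.45 ± 0.22, adjusted p = 0.00784). Zfp683 (Hobit), a factor of resident type 1 lymphocytes, measured 235 and 166 against 0.0643 and 0.116 CPM and was not called (adjusted p = 0.126). As with Tbx21, the compared replicates agreed for Zfp683 and the iNKT2 libraries did not (44.4 and 0.507 CPM).

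Cytokine and chemokine receptors changed in both directions. Of 23 tested interleukin receptor genes 6 rose, 4 fell and 13 were not called (43.5% called, beside 2.00% of all tested genes). Il1r1, Il23r, Il6ra, Il17rb, Il12rb1 and Il27ra rose, and Il2rb, Il21r, Il12rb2 and Il10ra fell. Il21r, the receptor for IL-21, measured 123 and 94.2 against 0.0643 and 0.155 CPM, and Il10ra, the IL-10 receptor, 107 and 143 against 0 and 0.0775 CPM. Both fallen receptors were at trace levels in iNKT17. Il27ra rose from 406 and 252 to 986 and 836 CPM. The receptor for IL-7, Il7r, measured 1318 and 1471 CPM in iNKT1 and 2405 and 2554 CPM in iNKT17 libraries without overlap, and was not called (adjusted p = 0.0779), and the common γ chain Il2rg overlapped (580.3 and 493 against 404 and 603 CPM).

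Of 16 tested chemokine receptor genes 3 rose (Ccr2, Ccr4 and Ccr7) and 2 fell (Cxcr3 and Ccr8). That is 31.25% called, beside 2.00% of all tested genes. Ccr7, which guides cells to lymphoid tissue, measured 0.0654 and 0 CPM in iNKT1 and 56.8 and 31 CPM in iNKT17 libraries. Cxcr6, a receptor of tissue-homing lymphocytes, was abundant on both sides (683 and 627 against 937 and 771 CPM, adjusted p = 0.61). Among 21 tested adhesion genes 3 rose and 3 fell (28.6% called, beside the same 2.00%). Itga1 and Itgb1, which form the collagen receptor CD49a/CD29, both fell, Itga1 from 256 and 259 to 0.0965 and 0.194 CPM and Itgb1 from 964 and 909.9 to 71.1 and 44.5 CPM. Itga4, another partner of Itgb1, also fell and measured 105 and 168 against 0.0643 and 0.194 CPM. Emb, the gene of embigin, rose from 1.31 and 0.15 to 620.2 and 745 CPM, and Itgal, the LFA-1 α chain, from 1394 and 1239 to 2259 and 2477 CPM. The β3 integrin Itgb3 measured 16.7 and 0.0898 against 546 and 439 CPM and was not called, with the 2 iNKT1 libraries far apart. Among 21 tested costimulation genes 3 rose (Icos, Tnfsf11 and Tnfrsf25) and 0 fell (14.3% called, beside the same 2.00%). Tnfsf11, the RANK ligand, measured 0.393 and 0 against 66.5 and 79.3 CPM. Tnfrsf25, the receptor DR3, rose from 31.4 and 13.5 to 329 and 167 CPM (adjusted p = 0.0436, and 0.0713 without iNKT1 library 2). The inhibitory receptor gene Pdcd1 (PD-1) measured 1.21 and 19.8 against 668 and 674 CPM and was not called (adjusted p = 0.127).

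Early-response and antigen-receptor signalling genes were lower in part. Of 25 immediate early genes, which T cells induce within minutes of activation, 6 fell, 0 rose and 19 were not called (median log2 fold change −0.92). The share called was 24%, beside 2.00% of all tested genes. The phosphatase gene Dusp2 fell from 374 and 526 to 42.5 and 34.2 CPM (−3.55 ± 0.39, adjusted p = 0.00127). Dusp1 fell from 1392 and 2127 to 225 and 397 CPM, and Tnfaip3 (A20), a brake on NF-κB, from 1543 and 1898 to 373 and 417 CPM. The activation marker Cd69 fell from 267 and 447 to 22.5 and 57.3 CPM (−3.16 ± 0.67, adjusted p = 0.0472). Fos and Jun overlapped between the groups (1474 and 2938 against 960.1 and 2238 CPM, and 309 and 788 against 515 and 759 CPM). Library 2 of each pair was the higher one for Fos and Jun. Summed over the list, iNKT1 libraries were highest (11709 and 16052 CPM), with iNKT2 at 4397 and 5494 CPM and iNKT17 at 5299 and 7909 CPM.

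Of 33 proximal T cell receptor signalling genes, all of them tested, Blk and the ζ chain Cd247 rose, Ptprc, Ptpn22, Cd2 and Pag1 fell, and 27 were not called. The share called was 18.2%, beside 2.00% of all tested genes. Ptprc, the phosphatase CD45, fell from 3392 and 3729 to 998 and 853 CPM (−1.94 ± 0.18, adjusted p = 0.000472). Cd247 rose from 207 and 234 to 651 and 480.1 CPM (1.36 ± 0.25, adjusted p = 0.0213). The Cd247 call was lost without iNKT1 library 1 (0.072) and that of Ptpn22 without iNKT1 library 2 (adjusted p = 0.195). The CD3 chains lay close together, with Cd3g at 843 and 861 against 931 and 852 CPM and Cd3e at 598 and 539 against 563 and 502 CPM (log2 fold changes 0.07 ± 0.19 and −0.09 ± 0.22). Zap70 measured 327 and 399 against 737 and 735 CPM without overlap and was not called (adjusted p = 0.0743).

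In metabolic, interferon response, cell cycle and survival lists the shares called were near the 2.00% of all tested genes or rested on 1 gene. By edgeR, 0 of 23 oxidative phosphorylation genes were called (0 at an unadjusted p under 0.05, 0 by DESeq2 and 0 by limma voom). For 21 lipid and cholesterol genes the count was also 0 (3 at an unadjusted p under 0.05, 3 by DESeq2 and 0 by limma voom). The other metabolic, cycling and survival lists gave 1 lower glycolysis gene of 17 (the glucose transporter Slc2a3, adjusted p = 0.824 without iNKT1 library 2), 1 lower cell cycle gene of 28 (Ccnd3), 1 higher interferon response gene of 34 (Ly6a) and 1 lower BCL-2 family gene of 15 (Bcl2). Ly6a, the surface antigen Sca-1, rose from 14.9 and 14.5 to 325 and 333 CPM (4.48 ± 0.39, adjusted p = 0.000265). By median, the interferon response list leaned lower (log2 fold change −0.97). Both iNKT17 libraries lay below both iNKT1 libraries for 14 of the 34 and above for 4, beside 22.3% and 18.2% of all tested genes. In edgeR 8 of the 34 had an unadjusted p under 0.05, beside 9.92% of all, and DESeq2 called 9 and limma voom 1. The summed level was 4038 and 3900 CPM in iNKT1 and 4297 and 4393 CPM in iNKT17 libraries, so it did not fall. Bcl2, which protects cells from apoptosis, fell from 503 and 164 to 48.3 and 18.9 CPM (−3.31 ± 0.70, adjusted p = 0.0494), and both groups' libraries differed by over 2-fold within the pair. The Bcl2 call was lost in 6 of 14 alternatives, with an adjusted p of 0.424 without iNKT1 library 1 and 0.123 without iNKT17 library 2. Ccnd3, a D-type cyclin, fell from 452 and 434 to 51.4 and 97.4 CPM (−2.57 ± 0.41, adjusted p = 0.0107). Among naive and quiescence genes 3 of 15 rose (Igfbp4, Ccr7 and Tcf7) and Txnip, a thioredoxin-binding regulator of glucose uptake, fell from 351 and 488 to 92 and 93.7 CPM. In the STAT and SOCS list, Jak3, the kinase of the common γ chain, rose from 445 and 496 to 1244 and 1158 CPM (1.35 ± 0.20, adjusted p = 0.00693) while Stat4 fell. The TGF-β inhibitor Smad7 fell (−2.98 ± 0.59, adjusted p = 0.0366, and 0.285 without iNKT1 library 2), the only call among 15 interferon and TGF-β receptor genes.

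The genes with the largest fitted fold changes were mostly outside these lists. Among called genes with a mean of at least 16 CPM, the 12 with the largest fitted rise, a ranking in which genes without counts in iNKT1 have no measured fold, were Il17rb, Map7, Abi3bp, Angptl2, Tns4, Lrrc17, Clstn3, Ldhd, Colq, Zan, She and Il23r. Map7, a microtubule-binding protein, had no count in iNKT1 and measured 101 and 101 CPM in iNKT17 libraries, at least 2149-fold higher (adjusted p = 0.00505). Tns4, a tensin of focal adhesions, measured 0.0327 and 0 against 262 and 176 CPM, 14246-fold (95% interval 2556 to 562721) in counts. Colq, the collagen tail of acetylcholinesterase, measured 0 and 0.0299 against 138 and 138 CPM, and Lrrc17, a secreted leucine-rich repeat protein, 0.0327 and 0 against 182 and 236 CPM. The replicates of these genes agreed within each group. Ldhd, the mitochondrial dehydrogenase of D-lactate, measured 0.0327 and 0 against 119 and 183 CPM, Zan, the sperm protein zonadhesin, 0.0982 and 0.0599 against 599.9 and 334 CPM, and the SH2 adaptor She 0.0327 and 0 against 113 and 97.4 CPM. Abi3bp, an extracellular matrix protein (134 and 55.3 CPM), the secreted factor Angptl2 (27.1 and 119.9 CPM) and the calsyntenin Clstn3 (22.1 and 42.6 CPM) had no count in iNKT1 libraries and stood at least 2097-fold, 1473-fold and 669-fold higher in that order. The iNKT17 libraries differed by over 4-fold from each other for Angptl2, whose call was lost without library 2 of iNKT17 (adjusted p = 0.246), and the Abi3bp call was lost without library 1 (adjusted p = 0.0989).

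The 12 with the largest fitted fall were Cmah, Nod1, Myo6, Gpsm1, Tsc22d3, Klri2, Klrk1, Arl4d, Xcl1, Padi2, Pou6f1 and Tjp1. Klrk1, the activating receptor NKG2D, measured 476 and 377 CPM in iNKT1 and 0.0322 and 0.194 CPM in iNKT17 libraries (−11.89 ± 1.86, adjusted p = 0.0401), and its call was lost without any 1 of the 4 compared libraries (adjusted p = 0.165 to 0.614). Cmah, which makes N-glycolylneuraminic acid on cell surface glycans, measured 161 and 211 against 0.0322 and 0 CPM, 10663-fold (95% interval 1913 to 421206) in counts. The Cmah call was lost without either iNKT17 library (adjusted p = 0.398 and 0.645), as was that of Pou6f1 (0.0955 and 0.179). Nod1, a cytosolic sensor of bacterial peptidoglycan, measured 136 and 152 against 0 and 0.0388 CPM. Padi2, a peptidylarginine deiminase, measured 229 and 206 against 0 and 0.116 CPM, and Tsc22d3, the glucocorticoid-induced leucine zipper GILZ, 93.3 and 234 against 0.0322 and 0.0388 CPM. None of the 12 exceeded 0.2 CPM in an iNKT17 library. Of 7901 genes at 16 CPM or more in iNKT17 library 1, 782 had 0 or 1 count in library 2. The other way round it was 467 of 7554. Whether such loss in both libraries plays a part at these 12 genes was not tested. In ATAC, the strongest region was lower in iNKT17 at those with an assigned region (log2 fold change −0.64 at Arl4d to −5.44 at Xcl1). The exception was Pou6f1, not called (23.9 and 20.2 against 17.8 and 14.1 CPM). In RNA, Tjp1, the tight junction scaffold ZO-1, measured 125 and 145 against 0.0322 and 0.0388 CPM. Myo6, a motor that moves toward the minus end of actin, measured 89.1 and 103 against 0.0322 and 0 CPM. Pou6f1, a POU-domain transcription factor, measured 168 and 113 against 0.0322 and 0.0388 CPM. The remaining 3 were the G-protein modulator Gpsm1 (65.2 and 131 against 0 and 0.0388 CPM), the NK lectin receptor Klri2 (75.8 and 102 against 0 and 0.0388 CPM) and the small GTPase Arl4d (109 and 50.8 against 0.0322 and 0 CPM). Dropping iNKT1 library 1 ended the calls of Arl4d (adjusted p = 0.199) and Klri2 (0.0873), and dropping iNKT1 library 2 ended those of Klri2 (0.531), Gpsm1 (0.227), Tsc22d3 (0.158) and Tjp1 (0.0516). The Gpsm1 call was also lost without either iNKT17 library (0.0562 and 0.0669).

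At most called genes both iNKT2 libraries lay inside the gap between the sublineages compared, which is not the same as midway. A trace value beside a near-absent group counts as between. The iNKT2 mean was under 1 CPM at 18 of the 122 higher and 20 of the 125 lower genes. At the 122 higher genes, both iNKT2 libraries fell between the groups for 67, at or beyond iNKT17 for 18 and at or below iNKT1 for 12, and 25 were mixed. At the 125 lower genes, the counts were 74 between, 31 at or beyond iNKT17, 6 at or above iNKT1 and 14 mixed. Il1r1, Il23r and Sdc1 were low in iNKT2 as in iNKT1, whereas Il17rb, Icos, Zbtb16 and Ccr4 were high in iNKT2 as in iNKT17. These positions are values beside the comparison and share its libraries.

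Replicates differed in a way that fold changes alone do not show. Among genes at 16 CPM or more in 1 iNKT17 library, 782 had 0 or 1 count in the second library when the first was high, and 467 the other way round. The same counts were 398 and 61 for iNKT1 and 87 and 301 for iNKT2 libraries, and none of these genes was called. With 2 libraries per group, such a spread leaves little room for a call, so this is no check on the called genes. Genes low in both libraries of a group are not counted here. In iNKT17 library 1, Lrpap1, a chaperone of lipoprotein receptors, measured 116 CPM and Cox14, a cytochrome c oxidase assembly factor, 112 CPM, with 0.0388 CPM each (1 count) in library 2. In library 2, the iron exporter Slc40a1 measured 133 CPM and Btbd2 123 CPM, with no count in library 1. Cox14 and Btbd2 measured between 24.3 and 98.8 CPM in the iNKT1 and iNKT2 libraries, whereas Slc40a1 was at or below 0.0362 CPM in the other 5. Spearman correlations of CPM over the tested genes, which share library and depth, were 0.863 between iNKT1 libraries and 0.769 between iNKT17 libraries. Library 1 of iNKT17 correlated at 0.816 with iNKT2 library 2 and at 0.780 with iNKT1 library 1, above its value with its own replicate.

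**Figure D4:**
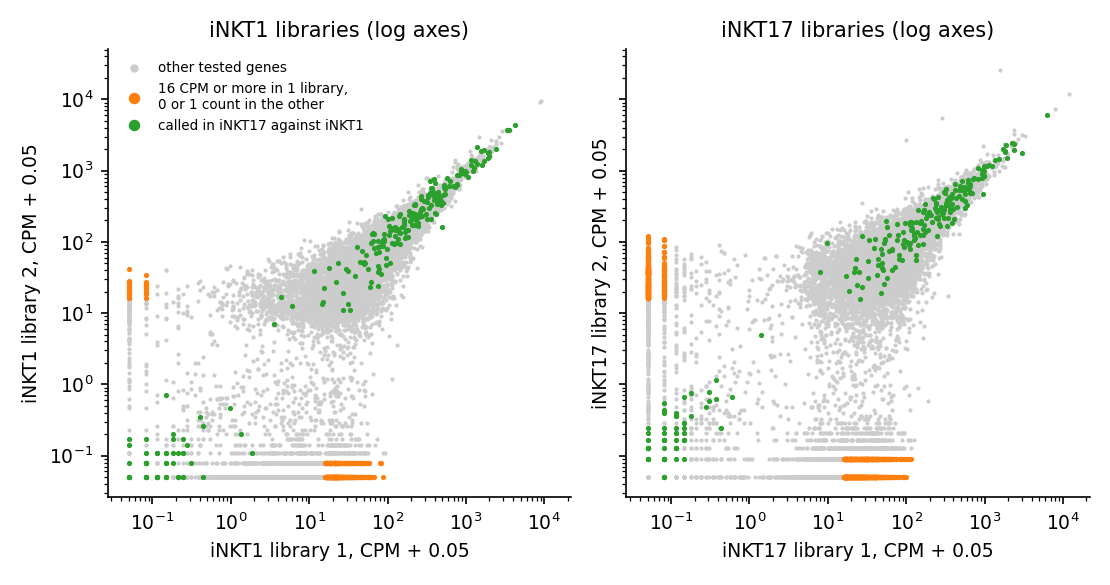
CPM + 0.05 of each tested gene in library 1 (horizontal, log axis) against library 2 (vertical, log axis) of iNKT1 (left) and iNKT17 cells (right), 1 point per gene. Genes at 16 CPM or more in 1 library with 0 or 1 count in the other (orange) line the axes and are more frequent in iNKT17, and the genes called between the sublineages (green) lie along the diagonal or are low in both libraries.

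Defining markers of other cells were mostly absent from the libraries compared, and the exceptions were unequal between groups. Of 6 T cell markers, Cd3d, Cd3e, Cd3g, Trac and Trbc2 were present in all 4 libraries, and Cd2 fell. Rag1, Rag2, Dntt and Ptcra, which mark immature thymocytes, had no count in the 4 libraries. The other 4 immature thymocyte markers brought that list to 26.6 and 33.4 CPM in iNKT1 and 25.3 and 82.2 CPM in iNKT17 libraries, most of it Cd1d1 (22.4 and 33.4 against 17.9 and 82.2 CPM). Stromal and epithelial markers summed to 5.53 and 19.2 CPM in iNKT1 and 91.2 and 64.6 CPM in iNKT17 libraries, with 7 of 10 at 0 in all 4. Most of that sum was Pecam1, which T cells can also express (58.6 and 34.2 CPM in iNKT17), and Epcam (17.8 and 30.4 CPM). Myeloid markers summed to 13.6 and 10.2 CPM in iNKT1 and 11.7 and 55.7 CPM in iNKT17 libraries, with 8 of 12 at 0 in all 4 and Cd68 at 11.7 and 48.6 CPM in iNKT17. B and plasma cell markers summed to at most 5.79 CPM and erythroid and platelet markers to at most 0.0898 CPM. Regulatory T cell markers summed to 122 and 275 CPM in iNKT1 and 294 and 228 CPM in iNKT17 libraries. Foxp3, which defines these cells, had no count, and Ikzf2 (36.2 and 132 against 215 and 172 CPM), Tnfrsf18 (86.3 and 142 against 43.9 and 21.6 CPM) and Il2ra (0 and 0.0299 against 35.2 and 16.1 CPM) were not called. Of 7 γδ T cell markers 4 were matched by symbol, and they summed to 80.5 and 185 CPM in iNKT1 and 766 and 709 CPM in iNKT17 libraries. Trgc1, Trgc2 and Scart1 were not found under these symbols, so the sum leaves them out whether or not they were measured. In iNKT17 that sum was Sox13 (578 and 568 CPM) and the Vγ segment Trgv2 (189 and 141 CPM, against 68.2 and 146 CPM in iNKT1), and Trdc and Trdv4 had no count.

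NK cell markers summed to 215 and 196 CPM in iNKT1 and 0.386 and 0.194 CPM in iNKT17 libraries, with 0 of 6 at 0 in all 4. Ncr1, the NK receptor NKp46, measured 30.2 and 23.1 CPM and Itga2, the integrin CD49b, 33.1 and 16.6 CPM in iNKT1, and neither had a count in iNKT17. Eomes, a T-box factor of NK cells, measured 2.59 and 0 CPM in iNKT1. These values moved with the cytotoxic and NK receptor genes above, and their part in those results was not tested. The same holds for the stromal, myeloid and γδ sums and the genes that rose.

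RNA and chromatin moved in the same direction at most called genes. Genes called higher by RNA had 85 regions on promoter windows (76 genes), of which 38 were higher, 5 lower and 42 not called, beside 3.64% higher among promoter regions of all tested genes. Genes called lower had 91 such regions (83 genes), of which 62 were lower, 0 higher and 29 not called, beside 19.6% lower among all. Elsewhere within the gene or 5 kb of it, 398 of 678 regions were higher at higher genes and 301 of 692 lower at lower genes. At genes not called by RNA, 19.8% of such regions were higher and 14.3% lower. Of 235 called genes with an assigned region, 209 had more called regions in one direction than in the other, and that direction was the RNA's for 201 (96.2%). RNA and ATAC came from separate libraries.

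Several genes departed from this pattern or showed it in part. Il17rb, which had no count in iNKT1, had a start region at 4.7 and 3.43 CPM in iNKT1 and 6.99 and 6.83 CPM in iNKT17 libraries that was not called (0.76 ± 0.27, adjusted p = 0.0544). The strongest region at Icos, chr1:60990089-60990961, was lower in iNKT17 (85.1 and 94.2 against 16.6 and 21.4 CPM, −2.24 ± 0.21, adjusted p = 0.000121) although Icos RNA rose, and 3 other Icos regions were higher. Runx1 has start regions at separate promoters, and they moved apart. The one at chr16:92825457-92826291 fell (78.8 and 83.5 against 51.8 and 52.1 CPM, −0.64 ± 0.17), and the one at chr16:92697172-92697686 rose (4.19 and 6.2 against 10.8 and 14.1 CPM, 1.27 ± 0.29), while 21 of 30 Runx1 regions were higher, beside 23.5% of all regions. At Tcf7 no region was higher and 2 of 8 were lower, and at Cd4, whose RNA fell, 1 of 4 regions was higher and 0 lower. Gata3, whose RNA was not called, had 6 of 13 regions lower and 0 higher, beside 13.6% of all regions lower. Il4 had 1 start region higher in iNKT17 (chr11:53617139-53617699, 3.94 and 3.47 against 10.1 and 11.4 CPM, 1.53 ± 0.24, adjusted p = 0.00108) and a stronger region at chr11:53609350-53610220 lower (44.7 and 34.7 against 10.6 and 11 CPM, −1.88 ± 0.23).

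**Figure D5:**
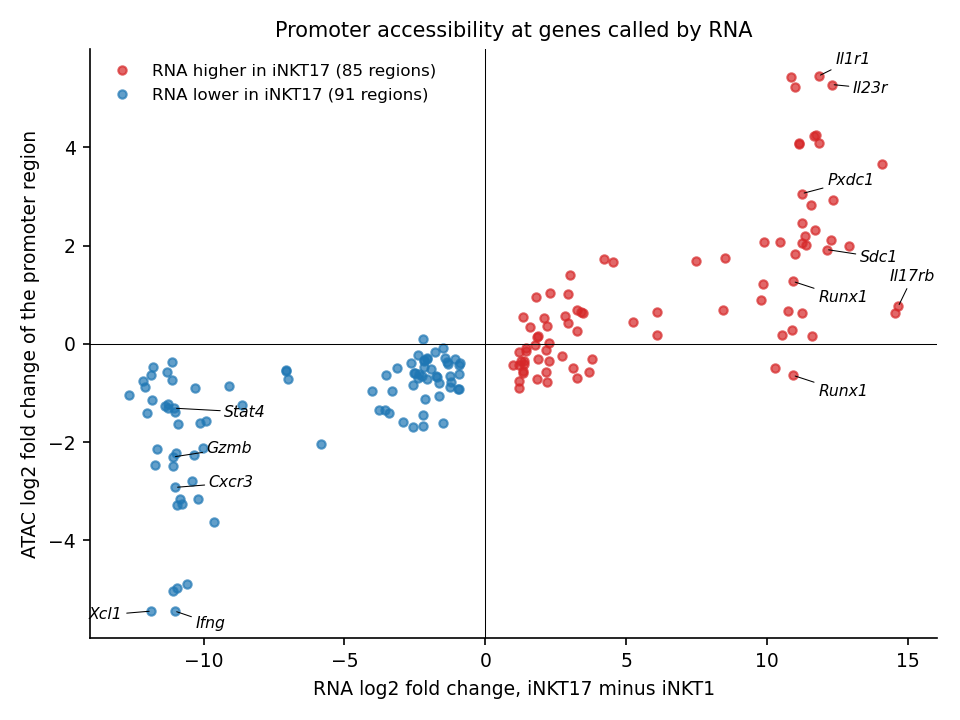
ATAC log2 fold change of promoter regions (vertical) against the RNA log2 fold change of the gene (horizontal), both iNKT17 minus iNKT1, for 85 regions of genes called higher by RNA (red) and 91 of genes called lower (blue). Nearly all blue points lie below 0, red points with large RNA changes lie mostly above 0, red points with small RNA changes lie on both sides, and Runx1 appears once above and once below.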

How the data were processed

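RNA-seq counts per gene and ATAC-seq counts per region were used as the authors deposited them, as whole-number raw counts. Per the labels' protocols, the RNA was prepared with a TruSeq stranded mRNA kit and sequenced as 75 bp pairs. The submitters' processing notes list STAR 2.5.4, DESeq2 1.22.2, kallisto, Bowtie2, MACS2, SAMtools, bedtools 2.27.1 and HOMER 4.9.1, with builds mm10 and GRCm38, in no stated order or role. Use of the strand in counting, and the treatment of reads shared by near-identical genes, are not given in the sources used here. Samples were mapped to groups by title, and 0 table columns were left unmatched. Of 52636 gene IDs, 99.6% had a symbol.

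edgeR 4.0.16 (R 4.3.3) tested both tables, with all 6 libraries of an assay in 1 fit: low-count filter by group, TMM scaling, robust quasi-likelihood fit, no replicate block, and Benjamini-Hochberg adjustment over all tested features, called at an adjusted p under 0.05. The pipeline was tested on simulated data. CPM values use the TMM factors. A group without counts was given a floor of 3 counts, and ratios with 1 to 3 counts on one side carry an exact (Clopper-Pearson) 95% interval, which covers counting error only. Nothing in the labels says that replicates are separate animals, so the p-values speak to variation among these libraries alone, and that variation may be technical. Counts over regions totalled 13299586 to 42964216 per ATAC library.

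The design assumed that the ATAC table names a gene for each region. It does not, so regions of at most 5000 bp were assigned to RefSeq GRCm38.p6 genes whose span, extended by 5000 bp, they overlap by at least 1 base. A promoter window spans 250 bases before to 50 bases after a RefSeq start.

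Named genes are 20 key genes, the 12 called genes per direction with the largest fold change (mean of at least 16 CPM, no overlap of libraries, predicted, pseudo-, ribosomal, mitochondrial, antigen receptor segment and sex-linked transcript genes left out) up to 4 members per list with the smallest p, and genes on in 1 iNKT17 library with 0 or 1 count in the other. Some named genes are not reported here. Names outside this rule were picked with their values known. The members and the 23 gene lists and 11 marker lists were chosen with earlier results of these data known. Alternatives were DESeq2 1.42.0, limma 3.58.1 (voom with quality weights), other scalings and filters, only the 4 compared libraries, a replicate block, and leaving out each library.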

Additional observations from a re-analysis of the deposited data

How the results depend on the processing

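All 247 RNA genes kept their direction under each of 14 alternatives, and 64 were called under all of them. At all 247 the libraries of the 2 groups did not overlap, so leaving out 1 library could hardly turn a direction. In place of 247, DESeq2 called 1840 genes and the fit without a low-count filter 559. Leaving out 1 library gave 195 to 1040 calls, being 398 when iNKT1 library 1, 419 when iNKT2 library 1, 1040 when iNKT17 library 1 and 467 when iNKT17 library 2 was dropped. The share called higher was 49.4% with all libraries, 72.4% when iNKT1 library 1, 37.7% when iNKT17 library 2 and 23.0% when iNKT17 library 1 was dropped. These fits leave 1 library in a group, which is assumed to vary like the other groups, and test more genes. Of 196 genes called by limma voom with quality weights, 125 were shared, and 46 of the 75 named genes that were called lost their call there. Of those 75, 24 lost it in no alternative that tested them. They include Il1r1, Il23r, Sdc1, Maf, Zbtb16, Icos and Il2rb. The Gata3 log2 fold change turned negative without iNKT1 library 1 (−0.20) and without iNKT17 library 2 (−0.17), and was 0.68 without iNKT1 library 2. Regions called numbered 20220, and 8848 where 10 CPM in 2 libraries was required, with 26200 regions tested; leaving out 1 library gave 12884 to 21078, the lowest without iNKT1 library 2. Scaling by library totals shifted the median log2 fold change of regions from 0.07 to 0.24. With the replicate block, 228 genes and 29131 regions were called, and lower regions rose from 7418 to 13505. Same-numbered libraries of iNKT1 and iNKT17 deviated together with a correlation of 0.061 in RNA. In ATAC the 3 pairs of groups gave 0.602, 0.438 and 0.515, a hint from the data of shared numbers. With 2 numbers per group and no label that ties them, the pairing was not established. By the region with the highest CPM per gene, RNA and ATAC directions matched for 130 of 143 genes (90.9%), in place of 201 of 209 (96.2%). For 92 of the 235 called genes with a region, that region was not called, and these 92 are left out of the 143. The cause of the difference was not tested. Depth was even between RNA libraries, and no fold was given where both groups held 3 counts or fewer.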
